A study of Arabidopsis thaliana with 8 samples.

Results

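Cytochrome P450 genes were described across 8 ATH1 arrays of Arabidopsis thaliana rosettes. Membership was set by name: a probe set had to be paired with a single gene whose annotated symbol is CYP, digits, a capital letter and digits. This gave 22 probe sets, each for a different gene, of 22746 on the array besides its controls. The annotation used here pairs 13513 probe sets with a single symbol, and the TAIR10.1 gene table holds 225 genes with a P450 symbol, so the 22 are a small part of the P450 genes of the plant. Of the 22, 18 belong to the CYP71B subfamily, and the others are CYP51G2, CYP78A9, CYP79A2 and CYP84A4.

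The arrays fell into 6 of the group labelled WRKY T-DNA knockout (KO-02, KO-07, KO-30, KO-40, KO-54 and KO-56, with a different insertion line on each) and 2 of the accession Col-0 (Col-0-L and Col-0-S, whose last letters the labels do not explain). By its title the study is about early leaf senescence and the II-A group of WRKY factors, which are plant DNA-binding regulators, but the labels do not state which gene each insertion disrupts, so the level of a disrupted gene was not checked. All plants were 35 days old and had just begun to bolt, and the rosette was taken without stem and flowers. They shared a chamber at 70% humidity, 22 °C by day and 19 °C by night, with 14 h of light and 8 h of dark as the labels give it, and soil that had received the insecticide imidacloprid (12 g per m3 of a product with 70% of it), which no group was without. Each line was on 1 array, and the labels name no separate cultures for the Col-0 pair. The p-values thus reflect no more than the variation among these arrays, part or all of which may be technical. As the 6 lines carry different insertions, the SDs over lines and the spread used in the tests also hold any differences between lines. The small number of arrays limits the precision. Because whole rosettes were sampled, fewer cells of a type and less RNA per cell cannot be told apart.

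P450 enzymes are heme proteins, most of which in plants lie at the endoplasmic reticulum. Typically they insert an oxygen atom from molecular oxygen into a small molecule, with electrons from an NADPH-dependent reductase. In plants they act in the synthesis and breakdown of hormones, in lignin, pigments, waxes and defence compounds, and in the removal of foreign chemicals. The CYP71B subfamily is a large one in Arabidopsis, with many genes side by side on the chromosome, and for many of them no reaction has been assigned.

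On the arrays as a whole, pairwise correlations of log2 values across probe sets lay between 0.976 and 0.987, with 0.984 for the Col-0 pair. For actin, the ratio of the 3' control probe set to the 5' one, which grows as RNA loses its 5' parts, reached 29.5 (KO-54) and 15.4 (KO-30). It was 8.41 to 12.0 in the other 4 lines and 9.98 and 10.9 in Col-0. The mesophyll markers LHCB4.1 and RCA were the only 2 of 18 listed that had a single-gene probe set in the annotation used here. Both were bright on every array, with summed signals of 6152 to 7345 in the lines and 7039.6 to 8771 in Col-0. Of 21 flower markers listed, only the pollen regulator AMS was paired with a single-gene probe set in the annotation used here. It had 0.381 to 6.87 in the lines and 0.702 to 7.63 in Col-0. For the root, 2 of 16 listed markers were paired in this way. They summed to 32.3 to 52.7 in the lines and 52.8 to 66.5 in Col-0, without overlap but with nearly equal nearest values. The epidermal list had 4 of 16 paired in this way, which summed to 50.4 to 80.8 in the lines and 59.4 to 89.3 in Col-0. No stem marker was paired in this way. The trichome regulator TRY and the root marker PYK10 were below both Col-0 arrays in all 6 lines (log2 differences of -0.55 and -0.46; limma adjusted p = 0.989 for each). Among all tested probe sets 3.1% were below both in all 6 lines. The root marker EXPA7 (2.17 to 14.8 in the lines, 8.09 and 10.5 in Col-0) overlapped between the groups, as did the epidermal markers FMA, MUTE and SPCH. MUTE, which was below the filter, had a higher mean in the lines (2.42) than in Col-0 (1.13). No marker was at 0, and the part of other cell types in the P450 values was not tested.

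Of the 22 P450 genes, 13 had a mean log2 signal above the 30th percentile of all probe sets and were tested. These were 11 of 18 in CYP71B together with CYP78A9 and CYP84A4. The remaining 9 were dim, with signals between 0.14 and 10.9 over all arrays. The limit was 3.87 on the log2 scale, which corresponds to a signal of about 9.63. The nearest below it was CYP71B37, with a mean log2 value of 3.40, and the nearest above it was CYP71B36, with 4.45.

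The comparison of the 6 insertion lines with Col-0 asked what the lines had in common. CYP71B genes were mostly somewhat brighter in the lines, led by CYP71B29, CYP71B23, CYP71B22 and CYP71B6 with log2 differences of 0.57, 0.48, 0.41 and 0.35. In these 4 genes each of the 6 lines was above both Col-0 arrays. CYP78A9 had the lowest difference (-0.33). No P450 gene passed the test: limma called 0 of 13 at an adjusted p under 0.05 (2 of 13 at an unadjusted p under 0.05), with 0 called among all 15922 tested probe sets, or 0%, and 3.72% at an unadjusted p under 0.05.

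**Figure D1:**
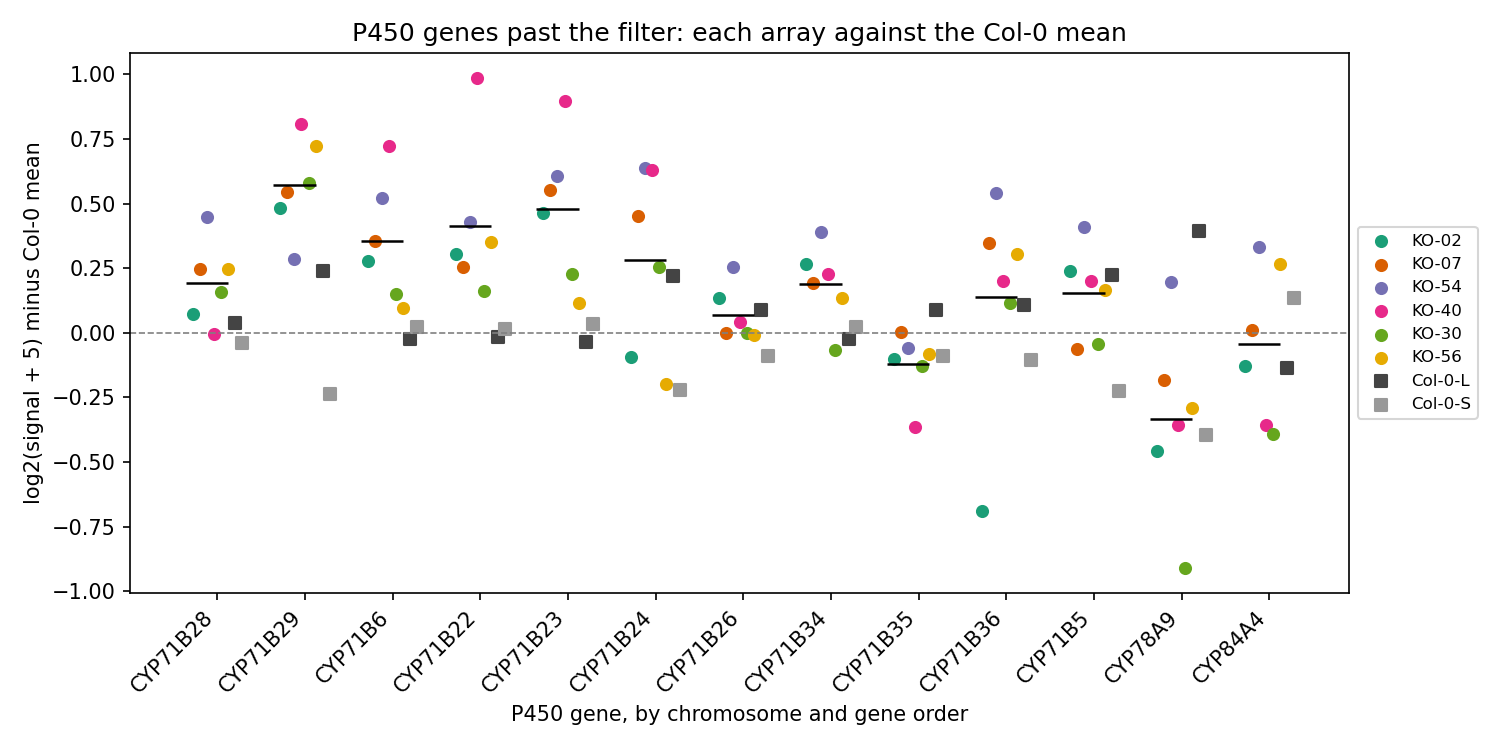
Log2(signal + 5) of each array minus the Col-0 mean (y axis) for the 13 tested P450 genes, ordered by chromosome and gene order (x axis). Circles are the 6 insertion lines, squares the 2 Col-0 arrays, and the black bar the mean of the lines. For CYP71B29, CYP71B6, CYP71B22 and CYP71B23 all circles lie above both squares, and for CYP78A9 the circle of KO-30 is the lowest point, at -0.91.

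CYP71B6, on chromosome 2, is known to act on indole-3-acetonitrile, an intermediate shared with the synthesis of the defence compound camalexin. Its signal was 274 in KO-02, 289 in KO-07, 325 in KO-54, 375 in KO-40, 250.5 in KO-30 and 241 in KO-56, against 221 (Col-0-L) and 229 (Col-0-S). KO-40 and KO-54 were highest, KO-56 was nearest to Col-0, and the groups did not overlap. The mean was 292 ± 50.1 (SD, n = 6) in the lines and 225 ± 5.51 (SD, n = 2) in Col-0, and the log2 difference was 0.35 ± 0.16 (SE; limma adjusted p = 0.989).

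CYP71B23, on chromosome 3 and without an assigned reaction here, had 215 in KO-02, 229 in KO-07, 238 in KO-54, 292 in KO-40, 182 in KO-30 and 168 in KO-56, against 151 (Col-0-L) and 158 (Col-0-S). All lines were above both Col-0 arrays. The order of the 8 arrays, from Col-0-L at the bottom through Col-0-S, KO-56, KO-30, KO-02, KO-07 and KO-54 to KO-40 at the top, was identical to that of CYP71B6, although the genes lie on different chromosomes. Among the 15922 tested probe sets, CYP71B6 shared its order with 3 others, of which CYP71B23 was 1; the pair was noticed after the values were seen and carries no test. The mean of CYP71B23 was 221 ± 44.4 (SD, n = 6) in the lines and 154 ± 5.33 (SD, n = 2) in Col-0, and the log2 difference was 0.48 ± 0.19 (SE; limma adjusted p = 0.989).

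CYP71B22, the next gene to CYP71B23 on chromosome 3, had 109 in KO-02, 105 in KO-07, 119 in KO-54, 178 in KO-40, 98.3 in KO-30 and 113 in KO-56, against 86.3 (Col-0-L) and 88.2 (Col-0-S). KO-40 stood well above the other lines, which lay within 98.3 to 119. The mean was 120.4 ± 29.1 (SD, n = 6) in the lines and 87.3 ± 1.37 (SD, n = 2) in Col-0, and the log2 difference was 0.41 ± 0.19 (SE; limma adjusted p = 0.989).

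CYP71B29, on chromosome 1, had 24.3 in KO-02, 25.5 in KO-07, 20.5 in KO-54, 31.6 in KO-40, 26.2 in KO-30 and 29.5 in KO-56, against 19.7 (Col-0-L) and 12.7 (Col-0-S). The groups did not overlap, but KO-54 was only just above Col-0-L. The log2 difference of 0.57 ± 0.16 (SE; limma adjusted p = 0.989) was 0.81 without Col-0-L and 0.33 without Col-0-S, so its size depended on which Col-0 array was kept. It also depended on the constant added before log2, with 0.68 for a constant of 1 and 0.35 for 21. With 21 added it was below CYP71B23 (0.44) and CYP71B22 (0.36).

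All 6 lines above both Col-0 arrays was thus the case for 4 of 13 P450 genes, and for 3.13% of all tested probe sets. The opposite, all 6 lines below both, was found for 0 of 13, and for 3.1% of all. Leaving out KO-54 and KO-30, whose actin ratios were the highest, gave log2 differences of 0.64, 0.51, 0.47 and 0.36 for CYP71B29, CYP71B23, CYP71B22 and CYP71B6. Without KO-40, the highest array for these 4 genes, they were smaller, at 0.52, 0.39, 0.30 and 0.28.

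**Figure D2:**
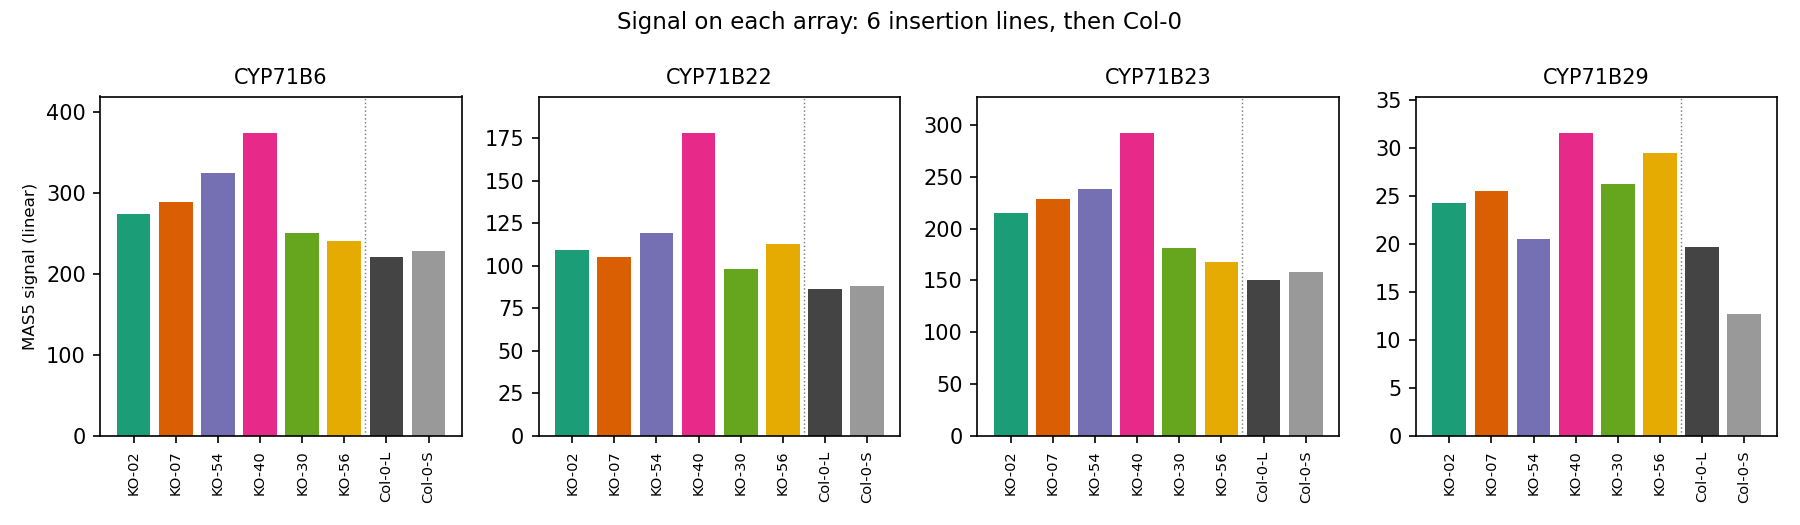
MAS5 signal on a linear scale (y axis) of CYP71B6, CYP71B22, CYP71B23 and CYP71B29 on each array (x axis), with the 6 insertion lines left of the dotted line and the 2 Col-0 arrays right of it. Each bar is 1 array; KO-40 is highest in all 4 panels, with 178 for CYP71B22 against 86.3 and 88.2 in Col-0.

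The other 7 tested CYP71B genes had smaller differences or overlapping groups. CYP71B24, on chromosome 3, had 106 in KO-02, 157 in KO-07, 179.7 in KO-54, 179 in KO-40, 137 in KO-30 and 98.3 in KO-56, against 133 (Col-0-L) and 96.9 (Col-0-S). KO-54, KO-40, KO-07 and KO-30 were above both Col-0 arrays, while KO-02 and KO-56 lay between them. The log2 difference of 0.28 ± 0.24 (SE) was 0.50 without Col-0-L and 0.06 without Col-0-S.

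CYP71B28, the next gene before CYP71B29 on chromosome 1, had 151 in KO-02, 170.4 in KO-07, 197 in KO-54, 142 in KO-40, 160.1 in KO-30 and 170.3 in KO-56, against 147 (Col-0-L) and 139 (Col-0-S). Here 5 of 6 lines were above both Col-0 arrays, and KO-40 lay between them, while in the neighbour CYP71B29 KO-40 was the highest array and KO-54 the lowest of the lines. The log2 difference was 0.19 ± 0.13 (SE).

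CYP71B34, on chromosome 3, had 104 in KO-02, 98.4 in KO-07, 114 in KO-54, 101 in KO-40, 81.5 in KO-30 and 94.4 in KO-56, against 84.1 (Col-0-L) and 86.9 (Col-0-S), so that 5 lines were above both Col-0 arrays and KO-30 below both. Its log2 difference was 0.19 ± 0.13 (SE). The next gene, CYP71B35, had a difference of the opposite sign. Its signal was 35.4 in KO-02, 38.5 in KO-07, 36.7 in KO-54, 28.7 in KO-40, 34.6 in KO-30 and 35.9 in KO-56, against 41.1 (Col-0-L) and 35.8 (Col-0-S). It was the 1 tested CYP71B gene with a lower mean in the lines, by a log2 difference of -0.12 ± 0.12 (SE), and KO-40 was its lowest array.

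CYP71B36, which follows CYP71B35, had 7.60 in KO-02, 20.8 in KO-07, 24.6 in KO-54, 18.3 in KO-40, 17.0 in KO-30 and 20.1 in KO-56, against 16.8 (Col-0-L) and 13.9 (Col-0-S). KO-02 was far below all other arrays, and the other 5 lines were above both Col-0 arrays. The KO-02 value is a single dim signal, under the 9.63 that corresponds to the filter. The log2 difference over the 6 lines was 0.14 ± 0.26 (SE). Without KO-02 it was 0.30.

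CYP71B26, the steadiest of the group, had 263 in KO-02, 239 in KO-07, 286 in KO-54, 247 in KO-40, 239.6 in KO-30 and 238 in KO-56, against 255 (Col-0-L) and 225 (Col-0-S). Its log2 values spanned 0.34 over the 8 arrays, a smaller range than in most tested probe sets (percentile 16.1), and the groups overlapped (0.07 ± 0.12, SE). CYP71B5, in another group of genes on chromosome 3, had 74.0 in KO-02, 59.2 in KO-07, 84.1 in KO-54, 72.0 in KO-40, 60.1 in KO-30 and 70.2 in KO-56, against 73.2 (Col-0-L) and 52.3 (Col-0-S). Of the lines, 4 lay between the Col-0 arrays, and KO-54 and KO-02 above both. The log2 difference of 0.15 ± 0.16 (SE) was 0.38 without Col-0-L and -0.07 without Col-0-S. The limma adjusted p of these 7 genes was 0.989 to 0.991.

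In all, 10 of 11 tested CYP71B genes had a higher mean in the lines, with a median log2 difference of 0.19. Among all tested probe sets 47.3% had a higher mean in the lines, and the median was -0.01. This count is a description of the genes bright enough to be tested, chosen with earlier results known, and carries no test. Of the 9 dim P450 genes, 4 had a higher mean log2 value in the lines. The median of the 11 was 0.33 without Col-0-L, 0.16 without Col-0-S and 0.30 without KO-02, and 0.20 without KO-54 and KO-30.

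**Figure D3:**
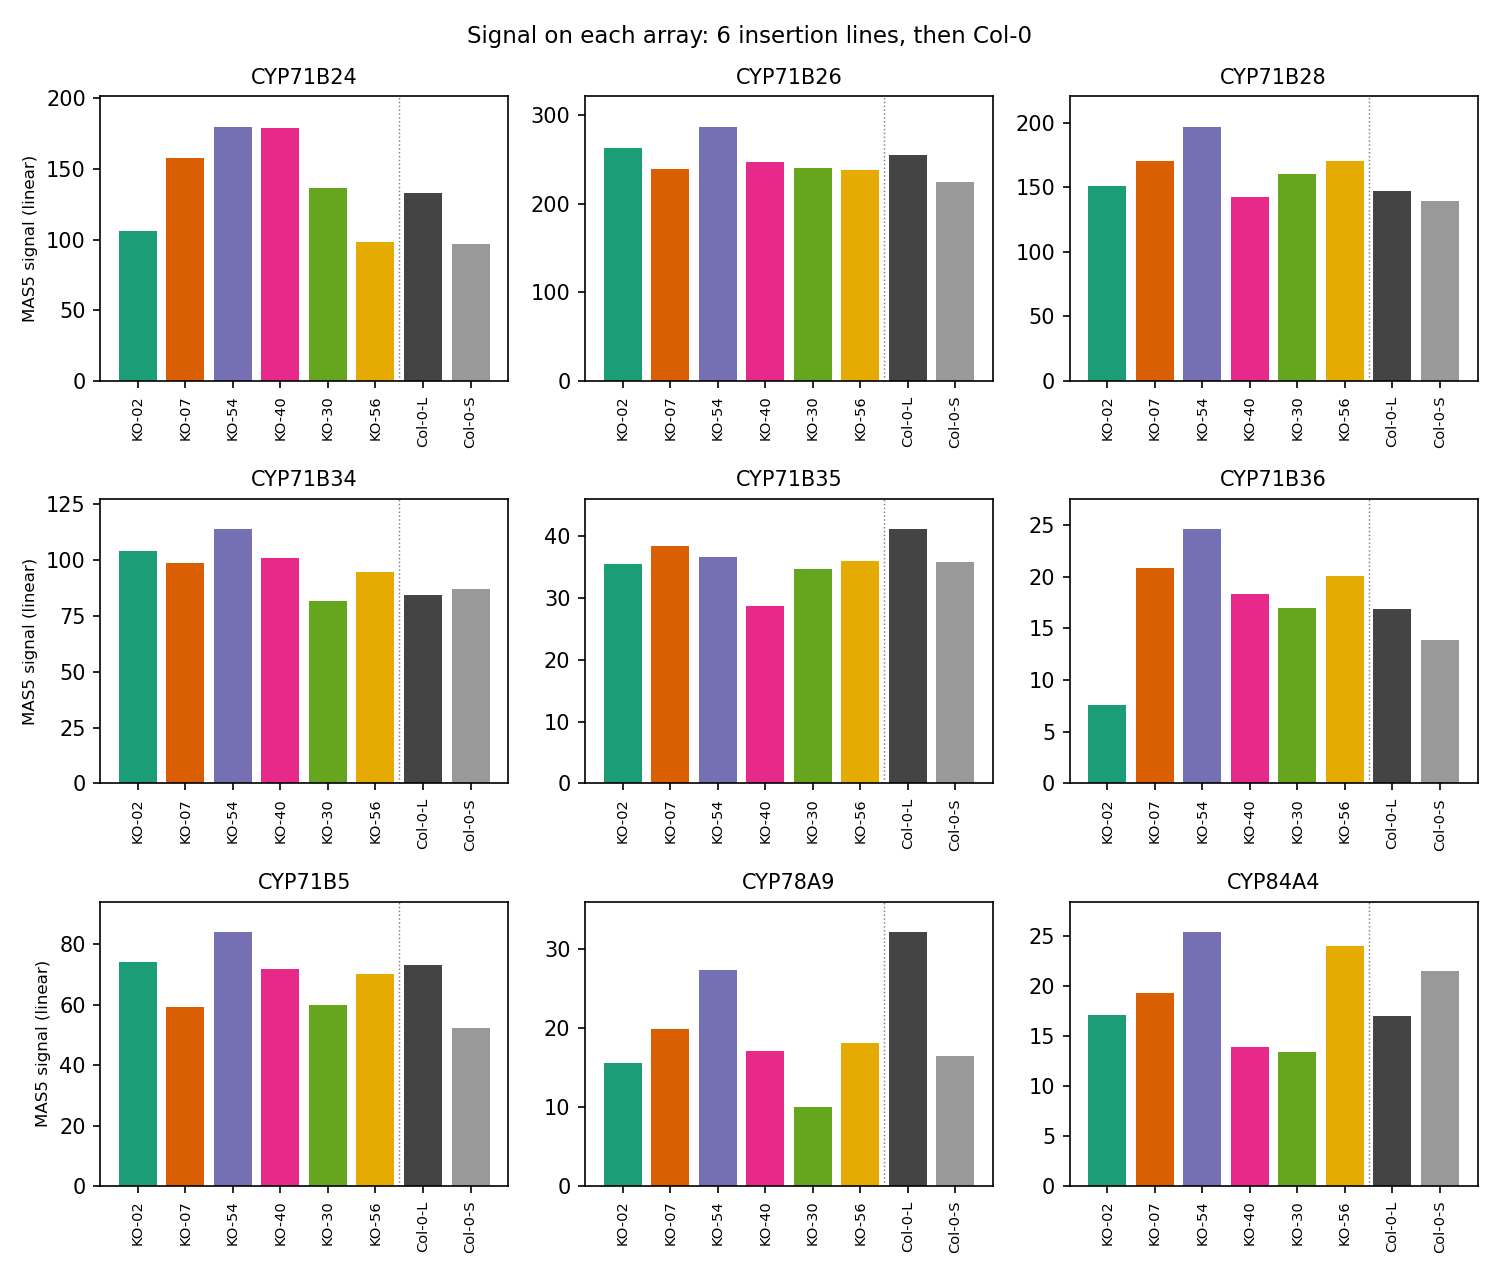
MAS5 signal on a linear scale (y axis) of the other 9 tested P450 genes on each array (x axis), with the 6 insertion lines left of the dotted line and the 2 Col-0 arrays right of it. Each bar is 1 array. KO-54 is the highest bar for 7 of these genes, KO-02 is the low bar of CYP71B36 at 7.60, and Col-0-L is the high bar of CYP78A9 at 32.2.

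Outside CYP71B, CYP78A9, a P450 of chromosome 3 known for its effect on the growth of fruits and seeds, had 15.6 in KO-02, 19.9 in KO-07, 27.4 in KO-54, 17.1 in KO-40, 10.0 in KO-30 and 18.1 in KO-56, against 32.2 (Col-0-L) and 16.5 (Col-0-S). Col-0-L was the highest array and KO-30 the lowest, and 4 of 6 lines lay between the Col-0 arrays. The mean was 18.0 ± 5.70 (SD, n = 6) in the lines and 24.3 ± 11.1 (SD, n = 2) in Col-0, and the log2 difference was -0.33 ± 0.27 (SE; limma adjusted p = 0.989). Without Col-0-L the direction turned (0.06), and without Col-0-S the difference was -0.73. Its log2 range of 1.31 over the 8 arrays was wider than in most tested probe sets (percentile 95.6). The flower marker AMS was also higher in Col-0-L (7.63) than in Col-0-S (0.702), but was below the filter, and its part in the CYP78A9 values was not tested.

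CYP84A4, on chromosome 5 and known to act in the synthesis of arabidopyrones from phenylpropanoids, had 17.1 in KO-02, 19.3 in KO-07, 25.4 in KO-54, 13.9 in KO-40, 13.4 in KO-30 and 24.0 in KO-56, against 17.0 (Col-0-L) and 21.5 (Col-0-S). KO-54 and KO-56 were above both Col-0 arrays, and KO-40 and KO-30 below both. The log2 difference was -0.04 ± 0.20 (SE; limma adjusted p = 0.995), and its sign turned when KO-40, KO-30 or Col-0-S was left out (0.02, 0.03 and 0.09).

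Among the 9 dim genes, CYP51G2 belongs to the family of sterol 14-demethylases and is annotated as a transcribed pseudogene in the gene table, as is CYP71B27. CYP79A2 is known to make phenylacetaldoxime for benzyl glucosinolate, and CYP71B31 to oxidise the floral monoterpene linalool. CYP79A2 reached at most 1.87 in the lines and 1.08 in Col-0. CYP71B31 reached at most 2.64 in the lines and 0.963 in Col-0. Both were below the filter and were not tested.

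CYP51G2 had 8.03 in KO-02, 1.64 in KO-07, 8.35 in KO-54, 2.25 in KO-40, 1.41 in KO-30 and 6.20 in KO-56, against 10.5 (Col-0-L) and 8.23 (Col-0-S). CYP71B37 had 1.29 in KO-02, 4.11 in KO-07, 7.74 in KO-54, 5.97 in KO-40, 6.10 in KO-30 and 4.69 in KO-56, against 7.91 (Col-0-L) and 8.80 (Col-0-S). For CYP71B37 all 6 lines, and for CYP51G2 5 of 6 lines, were below both Col-0 arrays, at signals too low to be tested. All 6 lines were below both in 3.1% of tested probe sets, and the share among dim ones was not counted. CYP71B27 lay between 0.22 and 10.9 in the lines and had 3.19 and 7.91 in Col-0. CYP71B16, CYP71B21, CYP71B25 and CYP71B38 stayed at or below 9.51 in the lines, and CYP71B38 was at 10.3 (Col-0-L) and 1.51 (Col-0-S) in Col-0.

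**Figure D4:**
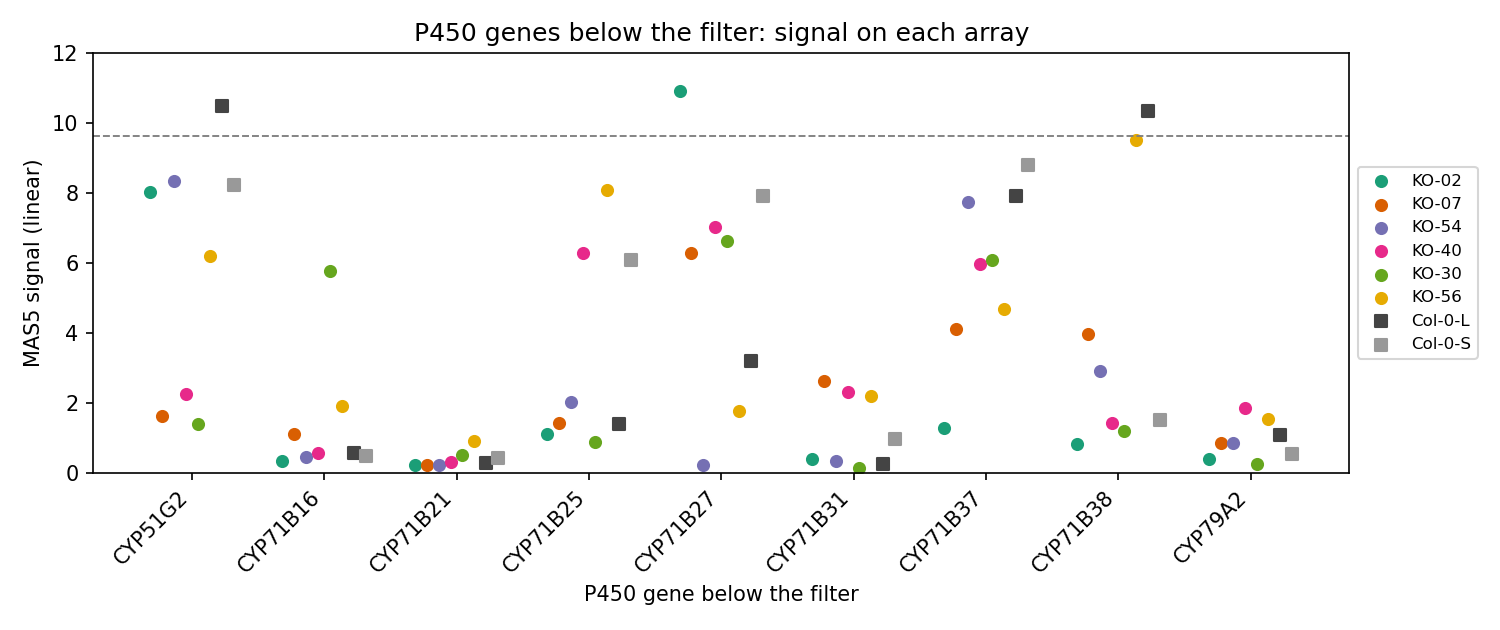
MAS5 signal on a linear scale (y axis) of the 9 P450 genes below the filter (x axis) on each array. Circles are the 6 insertion lines and squares the 2 Col-0 arrays, and the dashed line is the signal of 9.63 that corresponds to the filter. The highest point is CYP71B27 in KO-02 at 10.9, and for CYP71B37 all circles lie below both squares.

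The CYP71B genes lie mostly in tandem. The TAIR10.1 table names 36 CYP71B genes. Of these, 18 are among the P450 genes described here, 3 are on probe sets outside the naming rule, and 15 were not paired with a probe set in the annotation used here. The longest run, on chromosome 3 from CYP71B16 to CYP71B37, holds 18 CYP71B genes, 11 of which are described here. In gene order the tested genes of this run were CYP71B22, CYP71B23, CYP71B24, CYP71B26, CYP71B34, CYP71B35 and CYP71B36, with log2 differences of 0.41, 0.48, 0.28, 0.07, 0.19, -0.12 and 0.14. The 3 larger differences were those of the stretch from CYP71B22 to CYP71B24, which also holds CYP71B3 (not paired with a probe set here). Without Col-0-S, however, CYP71B24 was at 0.06, below CYP71B34 at 0.21. The stretch was read from these same values and carries no test. Dim genes were interspersed: CYP71B16 and CYP71B21 precede this stretch, CYP71B25 follows it and CYP71B37 ends the run.

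A second run, on chromosome 1, holds 5 CYP71B genes, of which CYP71B28 and CYP71B29 were tested, CYP71B27 was dim and 2 were not paired with a probe set here. Another, on chromosome 3, holds CYP71B5, which was tested, and CYP71B31, which was dim. CYP71B6 and CYP71B38 lie alone. Genes within a run are related in sequence, and although none of the 22 probe sets has the suffix that marks probes shared between genes, hybridisation of one transcript to the probes of a neighbour was not tested.

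Each line was also set against Col-0 on its own. The spread came from the other 7 arrays, grouped as Col-0 and 5 lines, the lone array was assumed to vary like them, and all 6 comparisons share the same 2 Col-0 arrays. KO-40 had the largest differences in the group that led the comparison of all lines. CYP71B22 differed by 0.99 ± 0.17 (SE; limma adjusted p = 0.246), CYP71B23 by 0.90 ± 0.23 (adjusted p = 0.436), CYP71B29 by 0.81 ± 0.24 (adjusted p = 0.530) and CYP71B6 by 0.72 ± 0.20 (adjusted p = 0.483). CYP71B35 had -0.36 and CYP78A9 -0.35 in the same line, while CYP71B28 had -0.01 and CYP71B26 0.04, so the P450 genes of KO-40 did not share one direction.

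KO-40 was the highest of the 8 arrays in 4 of the 13 tested P450 genes, namely CYP71B6, CYP71B22, CYP71B23 and CYP71B29. KO-54 was the highest in 7, namely CYP71B24, CYP71B26, CYP71B28, CYP71B34, CYP71B36, CYP71B5 and CYP84A4. Col-0-L was the highest in the remaining 2, CYP71B35 and CYP78A9. At the low end stood Col-0-S in 5 genes, Col-0-L and KO-30 in 3 each, and KO-02 and KO-40 in 1 each. How often each array was highest or lowest among all tested probe sets was not counted, so these counts have no background to be read against.

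KO-54 had the most P450 genes on the higher side, with 12 of 13 above the Col-0 mean and a median log2 difference of 0.41. Its largest differences were 0.64 ± 0.34 (SE) for CYP71B24, 0.61 ± 0.29 for CYP71B23, 0.54 ± 0.38 for CYP71B36 and 0.52 ± 0.24 for CYP71B6, and the smallest limma adjusted p was 0.410, for CYP71B28 (0.45 ± 0.17). The median over all tested probe sets in KO-54 was -0.01, and the share of them above the Col-0 mean was not counted. The actin 3' to 5' ratio of this array was 29.5 and its GAPDH ratio 2.46, against 9.98 and 10.9 for actin and 1.23 and 1.41 for GAPDH in Col-0, and their part in the P450 values was not tested.

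In KO-07 the median over the P450 genes was 0.25, with CYP71B23 at 0.55 ± 0.29 (SE) and CYP71B29 at 0.54 as the largest. In KO-56 the median was 0.14, with CYP71B29 at 0.72 (limma adjusted p = 0.722) and CYP78A9 at -0.29 as the lowest. In KO-02 it was 0.13, with CYP71B29 at 0.48 and CYP71B36 at -0.69 ± 0.21 (SE; limma adjusted p = 0.999). In KO-30 it was 0.12, with CYP71B29 at 0.58 and CYP78A9 at -0.91 ± 0.34 (SE; limma adjusted p = 0.524). KO-30 had the second highest actin ratio, 15.4. CYP71B29 was thus above both Col-0 arrays in every line, and its difference from the Col-0 mean was 0.29 in KO-54 to 0.81 in KO-40, while the directions of CYP71B36 and CYP78A9 differed between lines.

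The number of the 13 P450 genes above both Col-0 arrays was 8 in KO-02, 8 in KO-07, 11 in KO-54, 7 in KO-40, 7 in KO-30 and 8 in KO-56. The share of all tested probe sets above both was 34.3% in KO-02, 31.8% in KO-07, 36% in KO-54, 33.4% in KO-40, 31.7% in KO-30 and 35.8% in KO-56. The P450 shares, from 53.8% to 84.6%, were above these in each line, but all 6 rest on the same Col-0 pair.

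**Figure D5:**
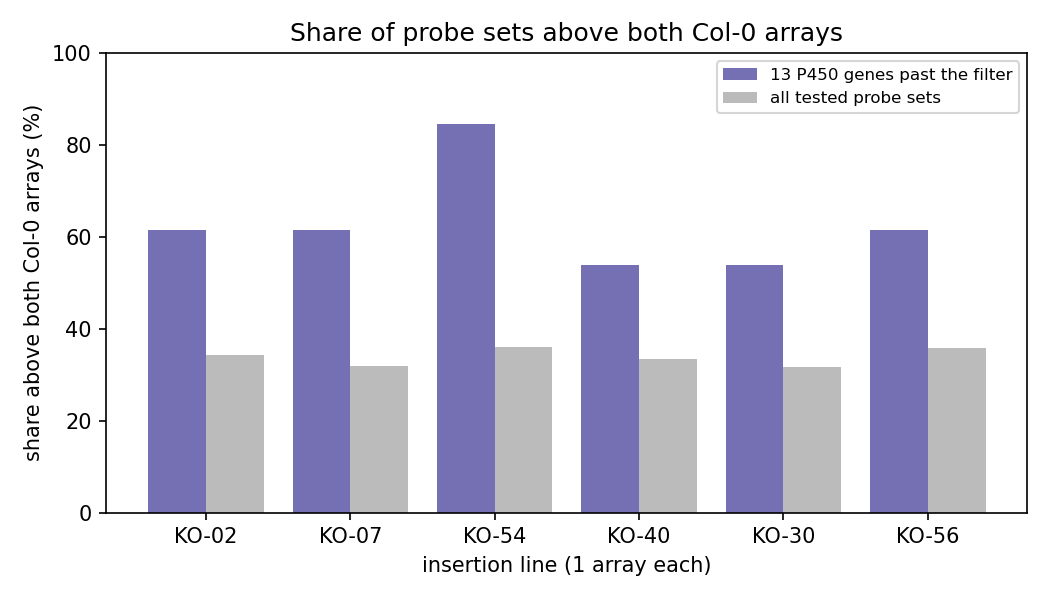
Share of probe sets whose signal was above both Col-0 arrays (y axis, percent) in each insertion line (x axis, 1 array each), for the 13 tested P450 genes and for all tested probe sets. The P450 share is 84.6% in KO-54 and between 53.8% and 61.5% in the other lines, and the share of all probe sets is between 31.7% and 36%.

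No P450 gene passed in any line. limma called 0 of 13 in each of the 6 comparisons with Col-0, where the calls among all tested probe sets were 0% in KO-02, KO-07 and KO-40, 0.0691% in KO-54 and 0.00628% in KO-30 and in KO-56. At an unadjusted p under 0.05 the P450 genes numbered 1 of 13 in KO-02 (2.29% of all tested probe sets), 0 in KO-07 (1.65%), 1 in KO-54 (10.5%), 4 in KO-40 (6.68%), 2 in KO-30 (8.48%) and 1 in KO-56 (5.5%). The 4 genes in KO-40 were CYP71B22, CYP71B23, CYP71B29 and CYP71B6.

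Whether a line differed from the other 5 lines was tested in the same models. The share of P450 tests with an unadjusted p under 0.05 was close to that among all tests, so the genes named below are a description. Over the 78 tests (13 genes in 6 lines) 0 P450 calls were made, against 0.0335% of all tests, and 5 had an unadjusted p under 0.05, against 6.53% of all. CYP71B36 in KO-02 differed from the other 5 lines by -0.99 ± 0.19 (SE; limma adjusted p = 0.890), with a signal of 7.60 in KO-02 and 20.2 ± 2.88 (SD, n = 5) in the others. CYP71B22 in KO-40 differed by 0.69 ± 0.15 (SE; limma adjusted p = 0.754), with 178 in KO-40 and 109 ± 7.87 (SD, n = 5) in the others. The remaining ones were CYP71B23 and CYP71B6 in KO-40 (0.51 and 0.44) and CYP78A9 in KO-30 (-0.69; adjusted p = 0.347).

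The Col-0 pair, 2 arrays of the same genotype, was set 1 against 1. The spread in this test came from the 6 insertion lines alone, and each Col-0 array was assumed to vary like them, so the counts say little about the spread within Col-0. CYP71B22, CYP71B23, CYP71B6 and CYP71B34 differed little within it, with log2 differences of Col-0-L minus Col-0-S between -0.07 and -0.03. CYP78A9 differed most (0.79 ± 0.42, SE), followed by CYP71B29 (0.48), CYP71B5 (0.45) and CYP71B24 (0.44), and for these 4 genes the size of the difference between the lines and Col-0 depended on the Col-0 array, as given above. limma called 0 of 13 P450 genes here (0% of all tested probe sets), and 0 had an unadjusted p under 0.05 (3.27% of all).

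The pathways in which P450 enzymes act were covered thinly. Lists of 335 genes of glucosinolate, hormone, phenylpropanoid, wax, carotenoid, sterol, terpenoid and detoxification pathways were matched to single-gene probe sets of the annotation used here. Besides the P450 genes 13 were matched, of which 10 were tested. limma called 0 higher and 0 lower in the lines (0% of all tested probe sets), and 0 had an unadjusted p under 0.05 (3.72% of all). The mean was higher in the lines for 7 and lower for 3, and higher for 47.3% of all tested probe sets. So few genes carry no reading of direction. Their log2 differences lay between -0.19 for BCAT4, an aminotransferase of aliphatic glucosinolate synthesis, and 0.39 for UGT73B5, a glycosyltransferase of stress responses. From the camalexin and indole glucosinolate list only CYP71B6 was matched. The other genes of that list may have probe sets that the annotation does not name.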

How the data were processed

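The deposited values are intensities, 1 per probe set of the ATH1 array, on a linear scale. The submitters' processing notes name MAS5 without a version. Their scaling was kept, since array means trimmed by 2% at either end were nearly equal. Control probe sets (64) were removed, which left 22746. Before log2, 5 was added (the rounded 20th percentile of all signals), so fold changes of low genes are understated. The 15922 probe sets with a mean log2 value above the 30th percentile were tested with limma 3.58.1 under R 4.3.3, using lmFit, eBayes and two-sided p-values. Benjamini-Hochberg adjustment ran over all tested probe sets, with calls at an adjusted p under 0.05. Setting all 6 lines against Col-0 left 6 residual degrees of freedom. Models for single lines separated the line, the Col-0 pair and the remaining 5 lines and had 5. In the test of the Col-0 pair, 1 array against 1, the spread came from the 6 lines alone. All 22 P450 genes were found in the TAIR10.1 table, which gave only names and gene order.

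The P450 genes, the lists and the rules were chosen with earlier results of these data known. Genes named were up to 10 higher and up to 10 lower tested P450 genes by smallest p (10 and 3 existed), the leading ones of each line, the 12 with the widest range and any in a pathway list, which together covered all 13 tested, and families were described by counts and medians. Dim genes are named to account for all members. The procedure was tested on simulated data. Listed symbols LCR and FDH stand for other genes in the table and were left out. Alternatives were other pseudocounts, filters, scalings and variance models, and leaving out arrays.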

Additional observations from a re-analysis of the deposited data

Results flagged for a closer look

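In 3 of 13 tested P450 genes 1 of the 6 insertion lines stood apart on the log2 scale from the others by Dixon's criterion, in which the gap to the nearest line is set against the range of all 6 and which chance meets in about 1 of 20 groups. Of all 15922 tested probe sets, 8.45% met it. CYP71B22 had 178 in KO-40, with 98.3 to 119 in the other lines. CYP71B35 had 28.7 in KO-40, with 34.6 to 38.5 in the other lines. CYP71B36 had 7.60 in KO-02, a dim signal under the 9.63 of the filter, with 17.0 to 24.6 in the other lines.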

How the results depend on the processing

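Under 16 alternatives limma called 0 tested P450 genes in the comparison of all lines with Col-0, in each line against Col-0 and in the Col-0 pair, wherever the comparison could be made, trended and robust variances included. The median log2 difference of the tested P450 genes was 0.09 to 0.24 when 1 array was left out (0.19 with all). That of CYP71B was 0.15 to 0.33, with 0.33 without Col-0-L and 0.30 without KO-02. Of 203 values of single genes, 197 kept their direction, and 9 of 13 genes kept it in all alternatives tried. The 6 that turned came from leaving out 1 array. CYP78A9 ran from -0.73 to 0.063, CYP84A4 from -0.18 to 0.091, CYP71B26 from -0.019 to 0.16 and CYP71B5 from -0.072 to 0.38. For CYP78A9 it turned without Col-0-L, for CYP71B26 and CYP71B5 without Col-0-S, and for CYP84A4 without KO-40, KO-30 or Col-0-S. In the comparison of all lines with Col-0, single genes had a limma adjusted p of 0.761 or more throughout. With the filter at the median 8 P450 genes were tested, and without a filter 22. No paired analysis was possible because the labels give all arrays the same replicate number. Signals near the filter limit what can be said of the 9 dim genes.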

Other observations

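A probe set shared by CYP71B20 and CYP71B19, which the naming rule left out, had 570.4 in KO-02, 634 in KO-07, 713 in KO-54, 647 in KO-40, 479 in KO-30 and 511 in KO-56, against 564 (Col-0-L) and 498 (Col-0-S). KO-54 was the highest array and KO-30 the lowest, and the log2 difference of the lines from Col-0 was 0.14 (limma adjusted p = 0.989). CYP718 and CYP71B30P, also outside the rule, were dim on all arrays, with at most 2.34 and 2.06.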
